A study of Sus scrofa with 8 samples.

Results

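The 6 genes described here, PTPRC, LCP2, VAV1, PLEK, DOCK11 and NKG7, encode a leukocyte surface antigen and proteins that act behind immune receptors or in the granules of cytotoxic cells. They were taken by symbol from the authors' table of their comparison, and each was read from its brightest transcript cluster, the unit in which the array sums the probes of a transcript. They are 6 of the 1341 genes that carry a name here, and the name of each stands on 1 of the 25470 transcript clusters of the array. Clusters outside the authors' table carry no name here, so a further cluster of a gene would not be seen. RNA came from the left ventricle of 4 Large White pigs, from its infarcted and its remote wall. The pigs were healthy before a balloon closed the mid-left anterior descending coronary artery for 90 min, and they gave 4 infarcted and 4 remote samples. The methods describe the animals as young females given amiodarone, acetylsalicylic acid and antibiotics, the infarcted sample as anterior and the remote one as posterior wall, and the remote wall belongs to the same infarcted heart, so no sample is from an uninjured animal. The series' design text places tissue collection at day 7 and the paper's methods at a later day. The cardiomyocyte gene MYH7, the slow cardiac myosin heavy chain, had mean log2 signals of 11.9 in remote and 10.35 in infarcted tissue, so heart muscle RNA was present in both regions.

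Antigen receptors and Fc receptors on leukocytes have no enzyme of their own. Kinases of the SRC and SYK families phosphorylate their tails and then adaptor proteins, on which further enzymes assemble. PTPRC, known as CD45, is a transmembrane phosphatase found on nearly all nucleated blood cells, and it keeps SRC family kinases ready to act. LCP2, known as SLP-76, is the adaptor to which VAV1, an exchange factor that activates small GTPases, binds. PLEK, pleckstrin, is the main protein kinase C substrate of platelets and is also made by myeloid cells. DOCK11 is an exchange factor for the GTPase CDC42 and is abundant in lymphoid tissue. NKG7 is a membrane protein of the cytotoxic granules of natural killer cells and T cells.

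All 6 genes were higher in infarcted than in remote tissue, between 2.43-fold for DOCK11 and 4.58-fold for PTPRC. In limma, with Benjamini-Hochberg adjustment over all 25470 transcript clusters, all 6 rose at an adjusted p under 0.05, against a background of 2.47% of all clusters that rose. A gene carries a name here only if the authors' table lists it, and that table holds only clusters that differed 2-fold or more in these same samples with a p, before adjustment, under 0.05. The 6 calls are therefore no independent evidence of a rise. Among the 586 named genes with a higher mean in infarcted tissue, 337 rose by the same test, which is 57.5%. The median log2 difference of the 6 genes was 1.71, beside 1.36 over those 586 genes and 0.02 over all clusters. In whole tissue, more leukocytes and more RNA per leukocyte cannot be told apart.

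Both arrays of pig 4 stood apart before any gene was considered. The SD of the log2 signals over an array was 1.46 and 1.49 in pig 4 and between 1.68 and 1.84 on the other 6 arrays. Results are therefore also given without pig 4, and for each pig on its own. Without pig 4 the log2 differences were 2.23 for PLEK, 2.09 for PTPRC and 2.08 for VAV1. They were 1.75 for NKG7, 1.60 for DOCK11 and 1.58 for LCP2. The largest of the 6 differences was thus that of PTPRC with all pigs and that of PLEK without pig 4.

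PTPRC, the surface antigen, had infarcted log2 signals of 7.47, 7.39, 7.39 and 6.30 in pigs 1 to 4, and remote signals of 5.25, 5.32, 5.42 and 3.78. Pig 4 was the lowest in both regions, and the lowest infarcted value still lay 0.88 above the highest remote one. The infarcted mean was 7.14 ± 0.56 (SD, n = 4) and the remote mean 4.94 ± 0.78 (SD, n = 4). The log2 difference was 2.20 (standard error 0.40, adjusted p = 0.0105 from limma). Within pigs it ran from 1.97 in pig 3 to 2.52 in pig 4, which was further below the other pigs in remote than in infarcted tissue. When the pig was added as a block the adjusted p was 0.000601, the lowest of the 6 genes in that fit, in which all 6 rose beside 4.57% of all clusters.

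LCP2, the adaptor, had infarcted log2 signals of 6.12, 5.60, 5.35 and 5.31 in pigs 1 to 4, and remote signals of 4.33, 3.98, 4.02 and 3.68. No infarcted value overlapped a remote one, and the gap between the regions was 0.98, the widest among the 6 genes. The log2 difference was 1.59 (standard error 0.25, adjusted p = 0.00471 from limma), a 3.02-fold rise. It lay between 1.33 and 1.79 within pigs, and pig 4 with 1.63 stood inside the range of the other pigs. Without pig 4 it was 1.58.

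VAV1, the exchange factor that binds LCP2, had infarcted log2 signals of 6.23, 5.71, 6.10 and 5.11 in pigs 1 to 4, and remote signals of 3.96, 3.58, 4.26 and 4.02. Pig 4 had the lowest infarcted value but the second highest remote one, and the groups were 0.85 apart. The log2 difference was 1.83 (standard error 0.28, adjusted p = 0.00426 from limma). It was 1.09 in pig 4 and between 1.84 and 2.27 in the other pigs. VAV1 had the smallest adjusted p of the 6 genes in the fit without a block for the pig.

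PLEK, the kinase C substrate, had infarcted log2 signals of 4.87, 5.56, 5.42 and 3.64 in pigs 1 to 4, and remote signals of 2.99, 2.64, 3.52 and 2.94. The regions nearly met, with a gap of 0.12 between pig 4 in infarcted and pig 3 in remote tissue. The log2 difference of 1.85 (standard error 0.40, adjusted p = 0.0199 from limma) had the widest spread within pigs, from 0.70 in pig 4 to 2.92 in pig 2. Only 2 of its 4 remote signals lay above the median of their own array, so remote PLEK is not shown to be above background and the size of its rise is not exact. Its cluster is annotated with PLEK and with an unnamed locus described as pleckstrin-like, so the signal may come from either. Its adjusted p rose above 0.05, to at most 0.0737, without remote replicate 1 or 2 or without infarcted replicate 1, 2 or 3, and was 0.000687 without both arrays of pig 4.

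DOCK11, the CDC42 exchange factor, had infarcted log2 signals of 5.33, 5.02, 4.91 and 4.26 in pigs 1 to 4, and remote signals of 3.66, 3.41, 3.39 and 3.93. In pig 4 the remote signal was the highest and the infarcted signal the lowest of its group, which left a difference of 0.33 in that pig against 1.52 to 1.67 in the others. The groups did not overlap and were 0.33 apart. The log2 difference was 1.28 (standard error 0.26, adjusted p = 0.0168 from limma) and 1.60 without pig 4 (adjusted p = 0.000748). The call was lost without remote replicate 1, 2 or 3 or without infarcted replicate 1 or 3, with an adjusted p of at most 0.0634.

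NKG7, the granule protein, had infarcted log2 signals of 4.85, 4.49, 5.10 and 4.36 in pigs 1 to 4, and remote signals of 3.16, 3.05, 2.98 and 3.69. Pig 4 again combined the highest remote with the lowest infarcted value, and the regions were 0.67 apart. The log2 difference was 1.48 (standard error 0.25, adjusted p = 0.00716 from limma), a 2.79-fold rise. It was 0.67 in pig 4 and ran from 1.44 to 2.12 in the other pigs. Of its remote signals, 3 of 4 lay above the median of their array, so remote NKG7 is not shown to be above background either and the size of its rise is not exact.

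**Figure D1:**
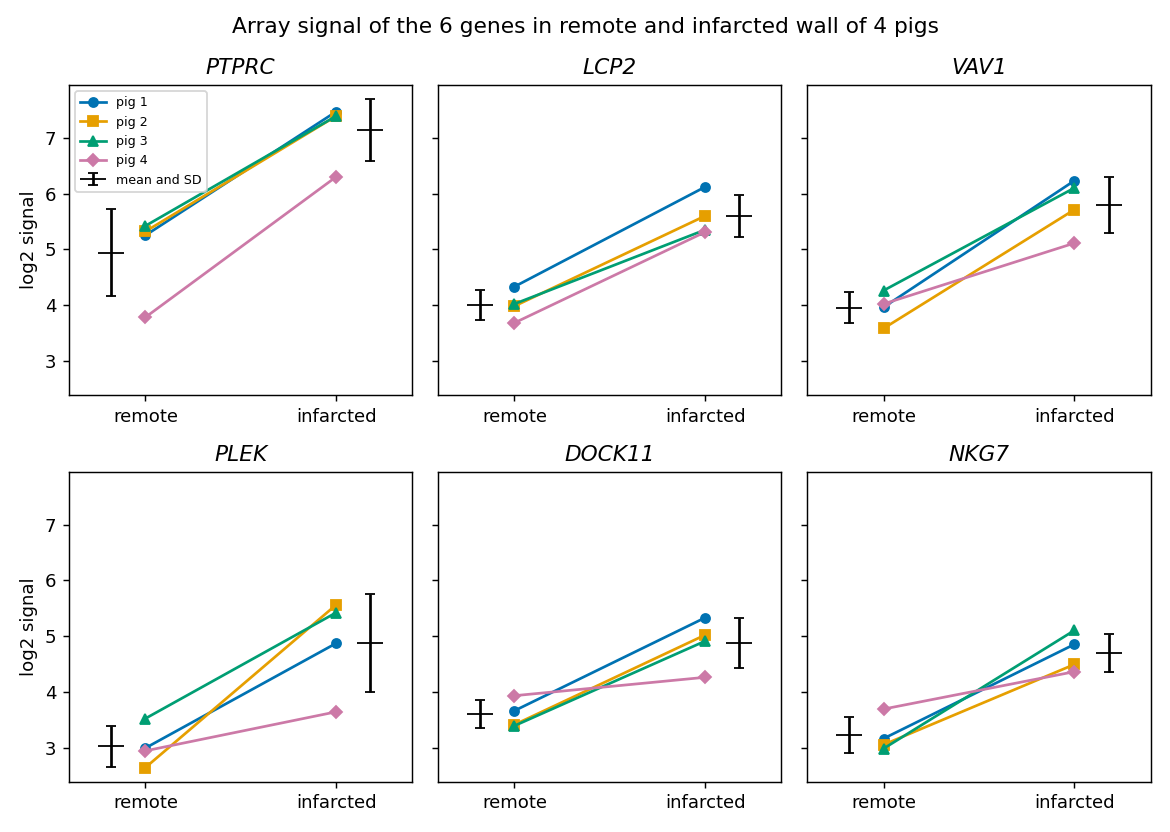
Log2 array signal of each of the 6 genes in remote and infarcted tissue, with a line joining both samples of a pig and black bars for the mean and SD of the 4 samples per region. Every line rises, and pig 4 has the lowest infarcted signal in all 6 panels.

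No infarcted signal overlapped a remote one for any of the 6 genes, where 5.19% of all clusters, 27.0% of all named genes and 61.8% of the 586 named genes with a higher mean in infarcted tissue had every infarcted array above every remote one. All 24 differences within a pig were therefore positive, which adds nothing to the lack of overlap. Their median over the 6 genes was 1.84, 1.84, 1.87 and 0.90 in pigs 1 to 4. Pig 4 gave the lowest infarcted signal of all 6 genes, on arrays with a narrow spread, and the smallest difference of 4 of them, VAV1, PLEK, DOCK11 and NKG7, but the largest difference of PTPRC. In the remote sample of pig 4 PTPRC and LCP2 were at their lowest and DOCK11 and NKG7 at their highest, whereas its remote VAV1 and PLEK lay inside the range of the other pigs.

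**Figure D2:**
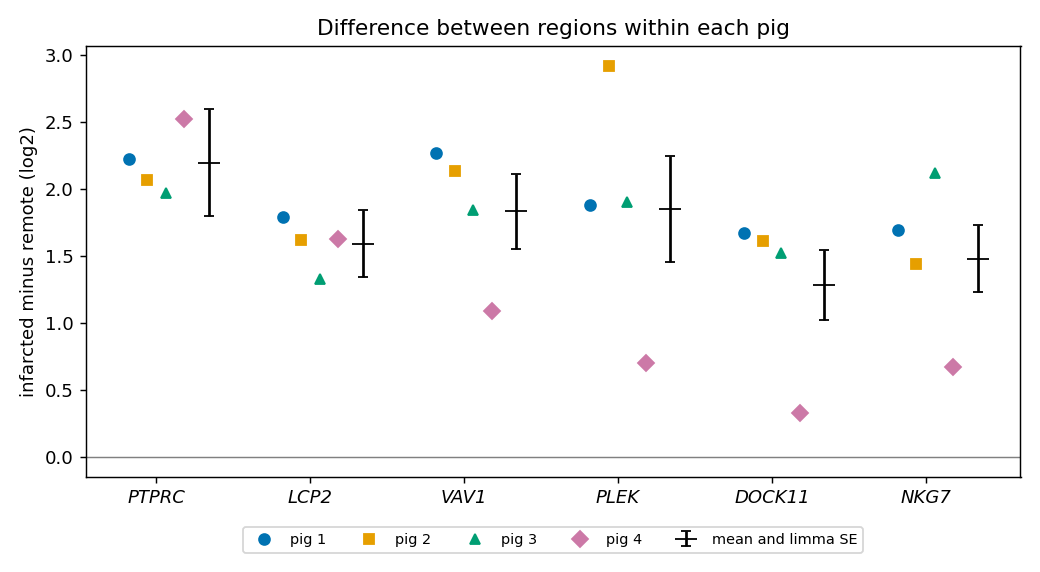
Infarcted minus remote log2 signal of each gene within each of the 4 pigs, with the mean and its limma standard error in black. Pig 4 lies between 0.33 for DOCK11 and 2.52 for PTPRC, a wider range over the genes than in any other pig.

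Ranks within an array do not depend on how wide the signals of an array spread. In remote tissue PTPRC stood at percentile 65.9 of all clusters in pig 4 and between 82.8 and 85.7 in the other pigs. DOCK11 stood at percentile 69.4 in pig 4 against 57.7 to 62.6, and NKG7 at 63.9 against 49.0 to 53.7. In infarcted tissue PTPRC ranged only from percentile 95.5 to 97.3, while PLEK was at 61.9 in pig 4 and between 79.0 and 86.4 in the others. By rank, pig 4 was the lowest infarcted sample for 3 of the 6 genes, PTPRC, PLEK and DOCK11. Its infarcted LCP2 (percentile 89.7), VAV1 (87.6) and NKG7 (77.5) stood above the lowest of the other pigs, at 85.7, 86.8 and 73.3. After quantile normalization between arrays the difference in pig 4 was 2.96 for PTPRC, 2.08 for LCP2, 1.37 for VAV1, 0.86 for PLEK, 0.44 for DOCK11 and 0.92 for NKG7. That of LCP2 then became the largest of its 4 pigs, and those of VAV1, PLEK, DOCK11 and NKG7 remained the smallest of theirs.

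**Figure D3:**
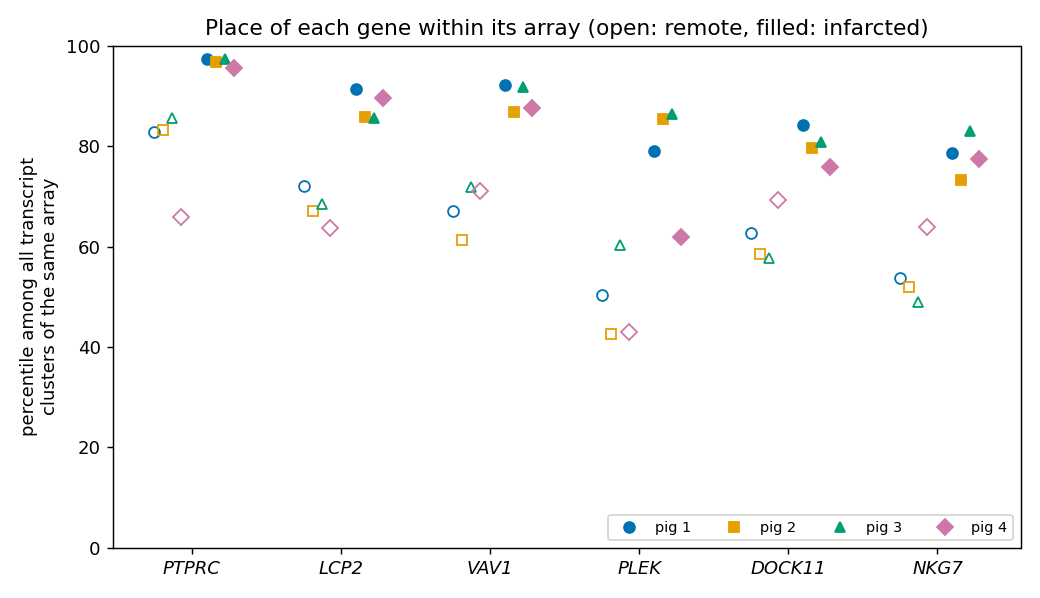
Percentile of each gene among all transcript clusters of the same array, with open symbols for remote and filled symbols for infarcted samples of 4 pigs. PTPRC in the remote sample of pig 4 lies at 65.9, below the other remote samples, and NKG7 in the same sample lies above them at 63.9.

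The other genes were then set against PTPRC within each sample, to ask whether they moved by another amount than the antigen shared by nearly all leukocytes. Each had a smaller mean difference between regions than PTPRC, by 0.60 on the log2 scale for LCP2, 0.36 for VAV1, 0.34 for PLEK, 0.91 for DOCK11 and 0.71 for NKG7. Relative to PTPRC both LCP2 and DOCK11 were lower in infarcted tissue in 4 of 4 pigs, with differences from −0.89 to −0.43 for LCP2 and from −2.19 to −0.45 for DOCK11. The exact permutation test of DOCK11 gave p = 0.0286, 2-sided, the smallest that 4 against 4 samples allow. After adjustment over the 5 comparisons its p was 0.143, and the adjusted p of the others lay between 0.357 for LCP2 and 0.629 for VAV1 and PLEK, by the same exact permutation test. None of the 5 differences was thus shown, and a single gene at the smallest p could not have passed the adjustment. All were smaller in size without the remote array of pig 4, where PTPRC was low. They were then −0.32 for LCP2, 0.047 for VAV1, 0.015 for PLEK, −0.41 for DOCK11 and −0.17 for NKG7. Without both arrays of pig 4 the log2 difference between regions was 2.23 for PLEK, above the 2.09 of PTPRC, and 2.08 for VAV1. Those of LCP2, DOCK11 and NKG7 stayed below that of PTPRC. Without both arrays of pig 4 the comparison with PTPRC was not tested.

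Deviations from the region means followed each other to different degrees. Over the 8 arrays, which come from 4 pigs and share the narrow spread of pig 4, the deviations of VAV1 correlated with the mean of the other 5 genes with Pearson's r = 0.84, those of PLEK with 0.72 and those of DOCK11 with 0.64. LCP2 and PTPRC gave 0.46 and 0.44, and NKG7 gave 0.24. Between single genes r ran from −0.27 for PTPRC and NKG7 to 0.76 for VAV1 and PLEK. These values describe the arrays and were given no test.

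Among all other named genes, those whose signals over the 8 arrays were most like the mean of the 6 genes were CAPG, FKBP10, CTSH, CDC42 and RGS10, with r of 0.991 to 0.995. CAPG is an actin-capping protein of macrophages, CTSH a lysosomal protease, FKBP10 a collagen chaperone and RGS10 a regulator of G protein signalling. CDC42 is the GTPase that DOCK11 activates. A shared difference between regions is enough for a high r here. By deviations from the region means, the most like were RAI14, SEC31A, LAMB1, CTSH and NCKAP1L, with r of 0.975 to 0.989. All 6 genes had their lowest infarcted signal in pig 4, so a gene low on that array can reach a high r here. NCKAP1L is the leukocyte form of an actin-regulating complex subunit.

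Other genes of leukocyte signalling were taken from 6 lists with 200 genes in all, of which 39 carry a name. All 39 had a higher mean in infarcted tissue, as did 586 of all 1341 named genes. The median log2 difference over all named genes was −0.998. In limma 22 of the 39 rose, none fell and 17 did not pass. Over all clusters 3.42% fell, and no share that fell was computed for the named genes. With the block for the pig 34 of the 39 rose, and without pig 4 38 did. The shares over the 586 named genes with a higher mean were 57.5% without a block, 84.0% with it and 95.9% without pig 4. The median log2 difference of the 39 was 1.57, and 24 of them had every infarcted array above every remote one, beside 61.8% of the 586. The shares of the 39 are near those of the 586 named genes with a higher mean in infarcted tissue. Over all 1341 named genes, 25.1% rose without a block and 27.0% had every infarcted array above every remote one. For 19 of the 39 the remote signal was not above the array median on all 4 remote arrays, so that remote level is not shown to be above background and the size of the difference is not exact. The 7 of these that rose were BTK, NCKAP1L, ARHGAP30, CAPG, CD84, CD86 and IFI30. The unnamed genes of the lists were not analysed here, so these counts do not describe the pathways as a whole.

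Of 56 kinases, adaptors and effectors of antigen receptors, 11 were named and 6 rose. These were PRKCB (2.04, standard error 0.24), INPP5D (1.62), UBASH3B (1.59), PIK3AP1 (1.57), BTK (1.41) and FYB1 (1.25), in log2 differences, with adjusted p from 0.00142 for PRKCB to 0.0182 for BTK. PRKCB is a protein kinase C, BTK a kinase of B cell and myeloid receptors, PIK3AP1 an adaptor for PI3 kinase, and FYB1 an adaptor that binds LCP2. INPP5D, a lipid phosphatase, and UBASH3B, a tyrosine phosphatase, are known to dampen receptor signals. Among the 5 that did not pass were BLNK, PLCG2, SKAP2 and DOK2, of which BLNK is the B cell relative of LCP2. With the block for the pig 9 of the 11 rose. The remote mean of BTK, 2.20, lay below the median of every array. The call for BTK was lost without remote replicate 1 or 2 or infarcted replicate 1 or 3, with an adjusted p of at most 0.0675. The clusters of INPP5D and SKAP2 are each shared with an unnamed locus. Without pig 4, 10 of the 11 rose.

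Of 25 receptors and receptor subunits listed for activating motifs, 4 were named and 2 rose. TYROBP, known as DAP12, had infarcted log2 signals of 6.29 ± 0.24 (SD, n = 4) and remote ones of 4.28 ± 0.32 (SD, n = 4), a difference of 2.01 (standard error 0.23, adjusted p = 0.00136 from limma). FCER1G, the common chain of Fc receptors, rose by 1.89 (standard error 0.39, adjusted p = 0.0169). CLEC7A (2.31, standard error 0.70, adjusted p = 0.0908, with a remote signal above the array median on 1 of 4 arrays) and FCGR2B (1.03, adjusted p = 0.0910) did not pass, and FCGR2B is an inhibitory receptor although it stands in this list. The call for FCER1G was lost without remote replicate 1, 2 or 3 or infarcted replicate 1 or 3, up to 0.0645. All 4 rose with the block for the pig and also without pig 4.

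Of 35 leukocyte regulators of actin and of small GTPases, 10 were named and 7 rose. The largest differences were those of CAPG (2.82, standard error 0.35, adjusted p = 0.00170) and LCP1 (2.65, standard error 0.42, adjusted p = 0.00520), the actin-bundling plastin of leukocytes. ARHGAP30 (1.87), NCKAP1L (1.76), DOCK2 (1.44), CDC42 (1.25) and FMNL1 (1.18) also rose. DOCK2 is the leukocyte relative of DOCK11 that activates RAC, and its cluster is shared with an unnamed locus. HCLS1 (1.96, adjusted p = 0.0520), ARPC1B and ELMO1 did not pass, but with the block for the pig they did, at adjusted p of 0.00282, 0.00188 and 0.0149. NCKAP1L, with an adjusted p of 0.0470, lost its call in 7 of the 8 fits with 1 array left out, in all but that without infarcted replicate 4 (up to 0.151).

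Of 46 leukocyte surface antigens other than PTPRC, 10 were named and 4 rose. These were EVI2B (2.55, standard error 0.49, adjusted p = 0.0126), the integrin chain ITGA4 (1.91, standard error 0.27, adjusted p = 0.00289), CD84 (1.46) and CD86 (1.34), a co-stimulatory ligand of antigen-presenting cells. CD48 (2.01, standard error 0.63, adjusted p = 0.100), CD53 (1.42, adjusted p = 0.0506), EVI2A, CD44, CD83 and SLAMF7 did not pass. With the block for the pig 8 of the 10 rose, and without pig 4 all 10 did. CD84 lost its call without any of remote replicates 1 to 3 or infarcted replicates 1 to 3 (up to 0.116), and CD86 in every fit with 1 array left out except that without infarcted replicate 4 (up to 0.143).

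Few partners of NKG7 in cytotoxic granules could be read. Of 17 listed genes 2 were named, and STXBP2, which is needed for the release of granules, rose by 1.06 (standard error 0.25, adjusted p = 0.0293), while the granule proteoglycan SRGN had 1.97 (standard error 0.81, adjusted p = 0.235). The call for STXBP2 was lost without any of remote replicates 1 to 3 or infarcted replicates 1 to 3, up to 0.101. Both named genes are also made by myeloid cells. Of 21 genes of antigen presentation 2 were named, the lysosomal protease CTSS (2.73, standard error 0.37, adjusted p = 0.00247) and the thiol reductase IFI30 (2.59, standard error 0.58, adjusted p = 0.0240), and both rose. The call for IFI30 ended without any of remote replicates 1 to 3 or infarcted replicates 1 to 3, up to 0.0865.

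**Figure D4:**
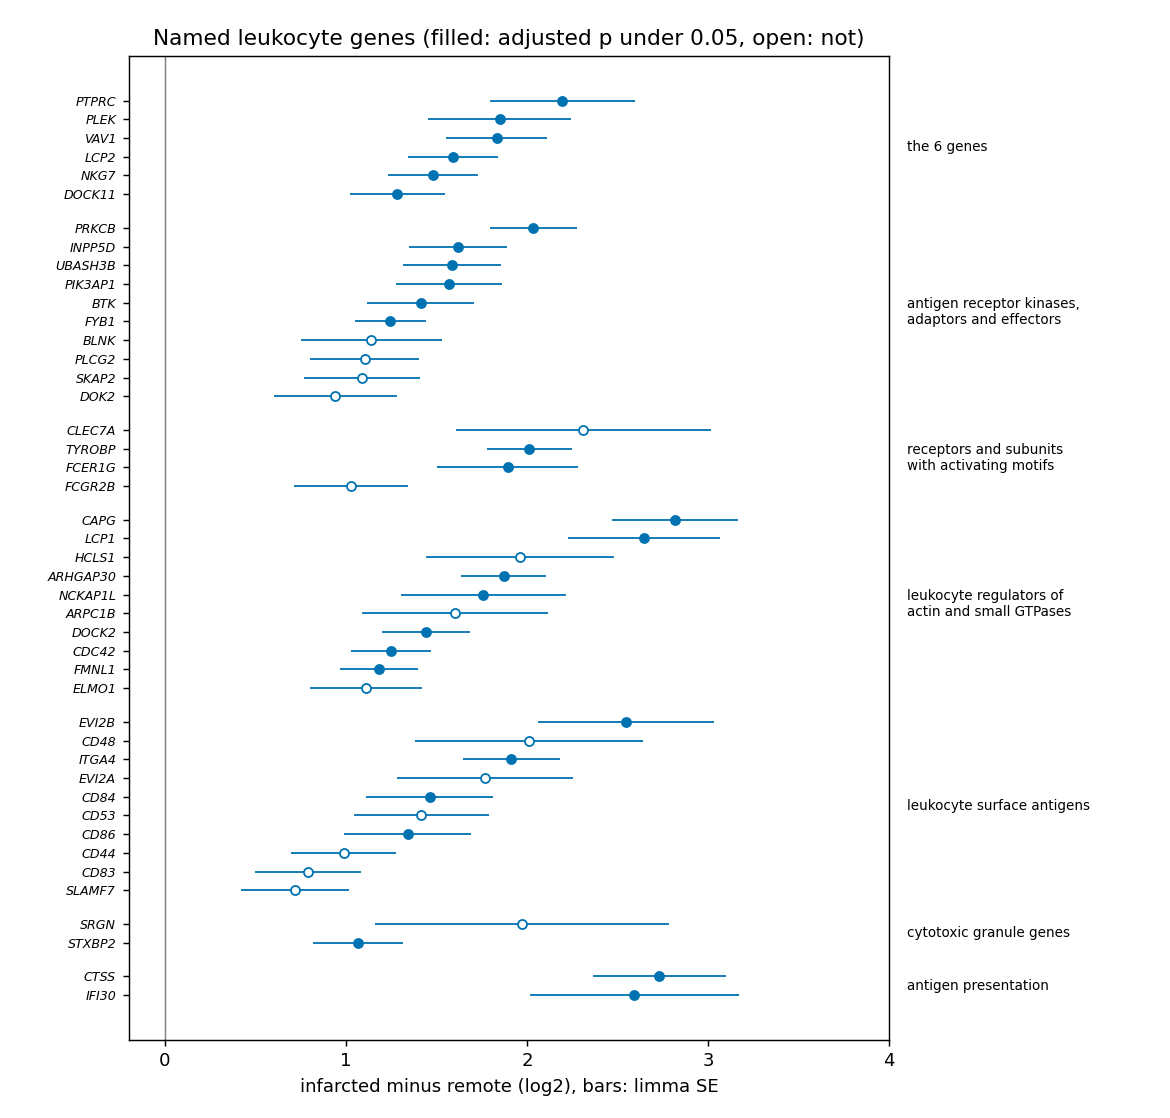
Log2 difference between infarcted and remote tissue for the 6 genes and for 38 of the 39 named genes of 6 lists, grouped by list, with limma standard errors as bars and filled points for an adjusted p under 0.05. All points lie above 0, and 16 of the 38 listed genes are open.

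The named markers of leukocytes, platelets and fibroblasts had higher means in infarcted tissue, as the 6 genes did. Those of cardiomyocytes and the 1 named endothelial marker had lower ones. A marker is named only if the authors' table lists it as changed, so the counts below are no independent evidence of a change. Among the 586 named genes with a higher mean 57.5% rose in limma. Over all clusters 3.42% fell, and no share was computed for named genes with a lower mean. Of 24 macrophage and monocyte markers 10 were named and 9 rose, with SPP1 (6.13) and LYZ (3.71) first, and the log2 of their summed signal was 8.26 to 10.9 in infarcted and 6.61 to 7.15 in remote tissue. The remote means of SPP1 and LYZ, 2.87 and 2.66, lay below the median of every array. The remote signal of each was above the array median on 1 of 4 arrays, so these sizes are not exact. LYZ lost its call without infarcted replicate 1 or 3 (up to 0.0528), and CD86 is in this list too. Of 16 T cell markers the receptor IL7R alone was named and rose by 1.78 (adjusted p = 0.0270, lost without any of remote replicates 1 to 3 or infarcted replicates 1 to 3, up to 0.0925), and its signal was 2.52 to 4.70 in infarcted and 1.86 to 2.31 in remote tissue, below the median of every array, so the size of this rise is not exact either. None of 11 natural killer cell markers and none of 11 dendritic cell markers was named, so NKG7 could not be set against them.

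Of 16 neutrophil markers 3 were named and S100A8 rose by 2.33 (adjusted p = 0.0176, up to 0.0601 without remote replicate 1 or 3 or infarcted replicate 1 or 2, where the call was lost), with a summed level of the 3 of 4.56 to 7.37 against 3.94 to 4.28. Remote S100A8, with a mean of 2.88, was above the array median on 1 of 4 arrays. The named plasma cell marker was JCHAIN (1.69, adjusted p = 0.0685), 1 of 11 B and plasma cell genes, at 4.72 to 7.04 against 3.40 to 4.39. The named platelet marker was ITGB3 (1.39, adjusted p = 0.133), 1 of 10, at 2.14 to 4.38 against 1.98 to 3.03. Of 11 fibroblast markers 5 were named and 4 rose, POSTN (3.86) first, with a summed level of 11.3 to 12.1 in infarcted tissue and of at most 9.64 in remote tissue. The endothelial receptor FLT1, 1 of 11 endothelial markers, fell by 1.03 (adjusted p = 0.0254), from 4.27 to 4.79 in remote to 3.26 to 3.91 in infarcted tissue. Of 15 cardiomyocyte markers 9 were named and 6 fell, with MYBPC3 (−3.43) and RYR2 (−2.88) first, both from clusters shared with an unnamed locus. The summed level of the 9 was 10.8 to 13.1 in infarcted and 13.4 to 14.4 in remote tissue. The part of what these markers measure in the rise of the 6 genes was not tested. The call for FLT1 was lost without remote replicate 1 or 3 or infarcted replicate 2 or 3 (up to 0.0868), that for MYBPC3 without remote replicate 1 or 2 or infarcted replicate 1 or 3 (up to 0.0645) and that for POSTN without infarcted replicate 1 (0.0504).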

How the data were processed

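RNA of 8 heart samples was labelled with the WT Pico kit and hybridised to GeneChip Porcine Gene 1.1 ST arrays. Array files were normalized by the authors in the Transcriptome Analysis Console, and their deposited values are log2 signals, 1 per transcript cluster. How probes were summarised is not given in the sources used here. Their deposited comparison table holds group averages (log2), a signed fold change (a score), a p-value and an FDR p-value, whose test is not stated, and was used for names alone. Of its 2331 clusters, 1375 could be tied to 1 gene, after 111 of 537 placeholder loci were updated from RefSeq records (Sscrofa11.1), and 232 of these also list an unnamed locus. Sheets with enrichment results or parts of the table were not used.

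A linear model was fitted in R 4.3.3 with limma 3.58.1, with region as the only factor, default empirical Bayes (prior degrees of freedom 4.86, residual 6) and Benjamini-Hochberg adjustment over 25470 clusters. Rose and fell refer to an adjusted p under 0.05. On simulated arrays with 200 changed clusters of 25470, 182 were called, 6 of them unchanged. These counts are not split by the size of the difference. Detection at the sizes found for the 6 genes was not tested. Other steps used Python 3.11.15, pandas 2.3.3, numpy 2.4.6, scipy 1.17.1 and matplotlib 3.10.9. The labels tie both samples of a pig to 1 animal, so the replicate numbers pair the samples. Deviations from the region means correlated within pigs 1 to 4 with r of 0.177, 0.428, 0.113 and 0.441. The highest r with a sample of another pig was 0.335, 0.335, 0.0904 and −0.00162. In pig 1 this exceeded the r within the pig, so the pairing rests on the labels. Genes were named as members, as the 2 with the largest rise and fall of a list, or as the 5 most like the members by each measure; further list genes were named after their values were seen. The counts of the lists include 1 gene that is not reported here. The members and lists were chosen with earlier results of these data known. Alternatives were quantile normalization, median centring, a replicate block for the pig, leaving out the clusters with the lowest mean signals, other moderation, array weights, leaving out pig 4 and leaving out each array. The number of arrays limits the precision.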

Additional observations from a re-analysis of the deposited data

Results flagged for a closer look

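PTPRC in pig 4 lay far from the other pigs in both regions, with a log2 signal of 6.30 in infarcted tissue against 7.39 to 7.47, and 3.78 in remote tissue against 5.25 to 5.42. NKG7 relative to PTPRC in remote tissue was −0.09 in that pig, far above the other remote samples, which uses the same PTPRC value. Such a gap to the nearest sample is met by chance in about 1 of 20 groups, and 22 groups of 4 were examined.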

How the results depend on the processing

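All 6 genes rose under the replicate block (adjusted p 0.000601 to 0.0151), quantile normalization, median centring (0.0103 to 0.0446), the filter, other moderation, array weights and without pig 4, also with the block, an alternative added after the data were seen. With 1 array left out, PTPRC, LCP2, VAV1 and NKG7 kept their calls, and the log2 differences ran from 1.81 to 2.47 (PTPRC), 1.62 to 2.26 (PLEK) and 1.13 to 1.49 (DOCK11). Each gene has 1 cluster that carries its name, so averaging clusters gave nothing further. Further clusters of these genes outside the authors' table would carry no name and were not examined. Over all clusters, 630 rose and 872 fell, against 1163 and 1441 with the replicate block, 1966 and 2136 with array weights, 1755 and 1906 without pig 4, and 1949 and 2166 without pig 4 with the block. With 1 array left out 259 to 1383 rose and 415 to 1508 fell. Relative to PTPRC, VAV1 ran from −0.61 to 0.047 and PLEK from −0.60 to 0.015 over the left-out arrays, positive only without remote replicate 4. Quantile normalization changed no call of the exact permutation test. The sign-flip test, used for the block, allows no p under 0.125, and the exact test none under 0.0571 with 1 array left out. Neither could therefore reach a call. In the lists, without pig 4, 10 antigen receptor genes, 4 receptors, 10 surface antigens, 2 granule genes, 3 neutrophil genes and 1 platelet gene rose, and with the block 4 receptors, 8 surface antigens, 1 plasma cell gene and 2 neutrophil genes. The causes were not tested.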
